A study of Mus musculus with 6 samples.

Results

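Chemokines and cytokines are the secreted proteins through which fibroblasts call in and keep alive cells of the immune system. The 45 genes described here were chosen by name, from 18193 genes with a probe set of their own. They are the numbered CXC and CC chemokines, *Cx3cl1*, *Ppbp* and *Pf4*, which make 33 chemokine genes, and 12 cytokines: *Il1a*, *Il1b*, *Il1rn*, *Il33*, *Il6*, *Il11*, *Lif*, *Csf1*, *Csf2*, *Csf3*, *Tslp* and *Tnf*. Each gene was read by the probe set with the highest mean over all arrays, out of 69 that named one of these genes alone. The RNA came from fibroblasts of the tail tips of newborn mice, either wild type for *Hotair* or *Hotair* knockout, with 3 arrays per genotype. *Hotair* is a long noncoding RNA made in the Hoxc gene cluster. Both genotypes were backcrossed to C57BL6 until they were over 97% alike. The labels state no treatment, sex, culture time or cell density, and they do not say whether the replicates of a genotype were separate mice, litters or cultures. The p-values therefore measure the spread between these arrays, which may be technical.

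Chemokines are small proteins that bind receptors coupled to G proteins and draw cells along a gradient. In the CXC family the members that carry an ELR motif attract neutrophils, *Cxcl9* to *Cxcl11* attract T cells after interferon, and *Cxcl12* holds stem cells and lymphocytes in tissue. The CC family acts mostly on monocytes, eosinophils and lymphocytes. In fibroblasts many of these genes are switched on by interleukin 1 or tumour necrosis factor through the transcription factor NF-kB, while others are part of the resting programme of skin fibroblasts.

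Values are log2 probe set summaries, so a difference of 1 is a factor of 2. Levels are compared within a gene, not between genes. The linear sums over marker lists do add different genes, and probe sets with high values weigh most in them. In bulk RNA, fewer cells that make a transcript and less transcript per cell cannot be told apart. The arrays numbered 1 in both genotypes stood apart from the others. On these, the 11 measured proliferation genes were lower than their own mean by 2.00 (median) in wild type and 1.48 in knockout, and on the 4 other arrays they were 0.62 to 1.18 above it. Knockout replicate 1 also had the largest 3′ minus 5′ difference of the control transcripts, a sign of RNA degradation, at 0.75 for *Gapdh* and 0.63 for *Actb*, against −0.21 to −0.03 and 0.12 to 0.21 on the other 5 arrays. Of the 14 fibroblast markers, 13 had a mean of at least 6 in wild type and 14 in knockout. *Vim*, the mesenchymal filament protein vimentin, measured 14.40 to 14.80. No probe set names *Hotair* in the annotation, so the genotype labels were not checked on the arrays.

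With all arrays in the fit, no chemokine or cytokine gene reached the adjusted threshold. The count by limma at an adjusted p of 0.05 was 0 of 45, with a smallest adjusted p of 0.743, and it was 0 of all 18193 genes (0%). At an unadjusted p under 0.05, 2 of the 45 genes were called (4.44%), against 6.68% of all genes. These were *Cxcl12* and *Ccl5*, both higher in knockout, where 4.01% of all genes were called higher, and none of the 45 was called lower, where 2.67% were. The knockout values lay wholly above the wild-type values for 1 gene, *Ccl5*, where 5.56% of all genes did so, and wholly below for 1 gene, *Csf3*, where 4.38% did. The median difference of the 45 genes was 0.04, with 28 above 0 and 17 below, and it was 0.01 over all genes. The single differences ran from −3.67 (*Ppbp*) to 2.56 (*Cxcl12*). The 6 values of a gene spanned over 2 for 14 of the 45 genes (31.1%), against 12.9% of all genes, and for 12 of the 18 with a mean of at least 6, against 19.2% of all such genes.

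**Figure D1:**
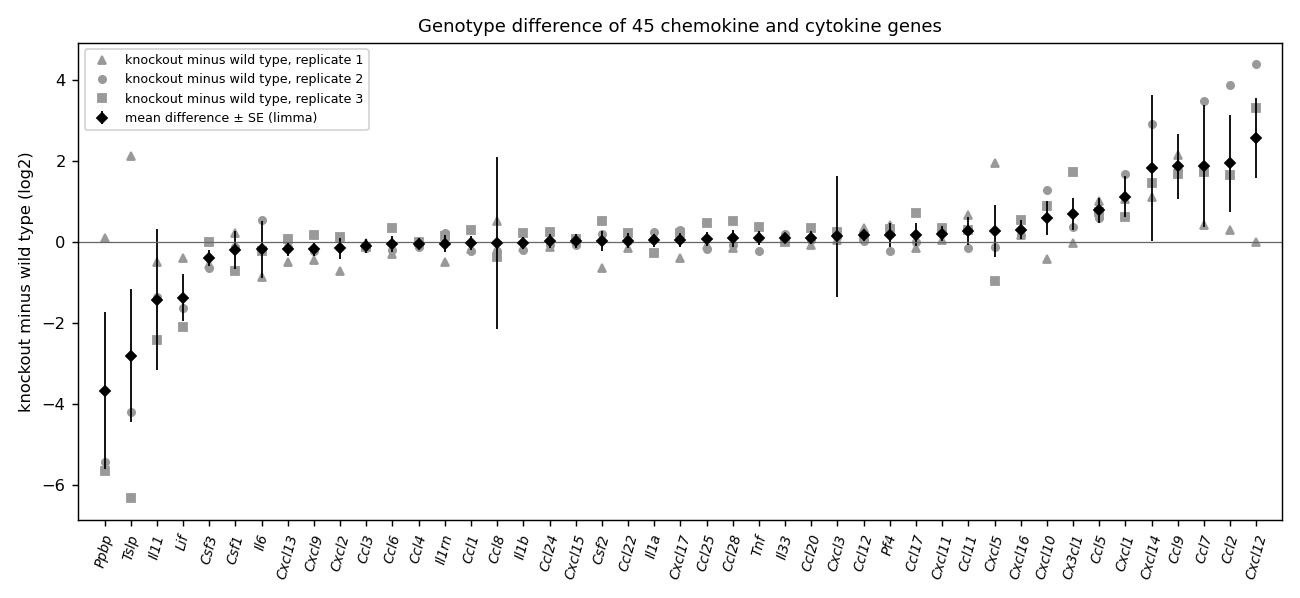
Knockout minus wild type on the log2 scale for the 45 chemokine and cytokine genes, ordered by size. Diamonds with bars are the limma differences ± SE over 3 arrays per genotype, and grey symbols are the differences between arrays of the same replicate number. The ends of the order, *Ppbp* at −3.67 and *Cxcl12* at 2.56, have replicate 1 near 0 (0.09 and −0.00).

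Arrays with the same number deviated together from their genotype means (correlations of 0.51, 0.39 and 0.35 for numbers 1, 2 and 3). A fit with the replicate number as a block was therefore set beside the first. The labels state no pairing, and wild-type replicate 3 correlated best with knockout replicate 2 (0.43). Pairing numbers 2 and 3 was thus an assumption, and the block results and the differences between partners rest on it. With the replicate block 0 genes passed after adjustment, here or over all genes (smallest adjusted p 0.424). At an unadjusted p under 0.05 the block called 10 of the 45 genes (22.2%), against 11.1% of all genes. Of these 7 were higher (6.86% of all genes) and 3 lower (4.23%). The higher ones were *Ccl2*, *Ccl5*, *Ccl7*, *Ccl9*, *Cxcl1*, *Cxcl12* and *Cxcl14*, and the lower ones *Il11*, *Lif* and *Ppbp*. When both arrays of replicate 1 were left out, a choice made after the data had been seen, 9 of the 45 genes passed at an adjusted p under 0.05 (20%), against 14% of all genes. *Ccl2*, *Ccl7*, *Ccl9*, *Cxcl10*, *Cxcl12* and *Cxcl14* were higher in knockout in that fit of 2 against 2 arrays (7.56% of all genes), and *Lif*, *Ppbp* and *Tslp* lower (6.41%). Leaving out knockout replicate 1 alone called 1 of the 45, *Ppbp*, which was lower (adjusted p = 0.0440), against 0.478% of all genes, 0.165% higher and 0.313% lower. The knockout array was above its partner at all 3 replicate numbers for 11 of the 45 genes (24.4%, against 17.1% of all genes) and below it for 5 (11.1%, against 13.4%). Array weights called 6 of the 45 (13.3%), against 11.5% of all genes: *Ccl9*, *Cxcl10* and *Cxcl12* higher (6.7%), and *Lif*, *Ppbp* and *Tslp* lower (4.85%).

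Of the neutrophil-attracting CXC chemokines, 3 of 6 had a mean of at least 6, which was taken as the lower bound of a clear signal. *Ppbp*, which encodes the precursor of the neutrophil chemokine CXCL7 and is best known from platelets, measured 13.55, 12.12 and 12.52 in wild-type replicates 1 to 3 and 13.64, 6.67 and 6.85 in knockout replicates 1 to 3. All wild-type arrays and knockout replicate 1 were high, and the other two knockout arrays were low, so the genotypes overlapped through 1 array. The difference was −3.67 ± 1.93 (SE, limma adjusted p = 0.790), and it was −5.56 ± 0.20 without replicate 1 of both genotypes (adjusted p = 0.00155). It was −5.97 without knockout replicate 1. Levels of other platelet genes, a list written after these values were seen, are given beside it, and the part of platelet RNA in the *Ppbp* values was not tested. *Gp1bb*, a platelet adhesion receptor gene, ranged from 4.95 to 6.64 in wild type and from 5.59 to 7.04 in knockout, and was highest on replicate 1 of each genotype. *Pf4*, the neighbouring gene for platelet factor 4, stayed between 3.94 and 4.97, the integrin gene *Itga2b* between 7.30 and 7.88 and the receptor gene *Clec1b* between 3.73 and 3.95.

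*Cxcl1*, a neutrophil chemokine induced by NF-kB, read 8.75, 7.39 and 7.70 on the wild-type and 9.81, 9.06 and 8.30 on the knockout arrays. Each knockout array was above the wild-type array of the same number, by 1.06, 1.67 and 0.61, while the ranges of the genotypes overlapped. The difference was 1.11 ± 0.51 (SE, adjusted p = 0.766; with the replicate block 0.25 was the SE). Its other probe sets were higher in knockout too, by 1.23 and 0.48. *Cxcl5*, a neutrophil chemokine of epithelium and stroma, read 7.94, 9.99 and 10.35 on the wild-type and 9.87, 9.86 and 9.36 on the knockout arrays. Only wild-type replicate 1 was low, and the sign of the difference turned with it, from 0.27 ± 0.65 (SE) over all arrays to −0.47 without that array. *Cxcl3*, named after its values were seen, read 7.23, 3.31 and 3.32 on the wild-type and 7.27, 3.44 and 3.56 on the knockout arrays. It was high on replicate 1 of both genotypes and low on the 4 other arrays, with differences of 0.04, 0.12 and 0.24 between arrays of the same number. *Cxcl2* and *Cxcl15* stayed dim, at 3.08 to 4.0 and 4.35 to 4.76.

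*Ppbp*, *Cxcl3*, *Cxcl1* and *Cxcl2* are shown with the 250 bases before their start sites because they are near neighbours on chromosome 5 that differed in pattern on these arrays. The sequences are RefSeq's for assembly GRCm38.p6, written 5′ to 3′ on the strand of the gene. Capitals mark matches to GGG followed by any 2 bases and TTTCC, a form of the NF-kB site, or to its reverse complement.
*Ppbp* (chr5:90768268-90768517, plus strand): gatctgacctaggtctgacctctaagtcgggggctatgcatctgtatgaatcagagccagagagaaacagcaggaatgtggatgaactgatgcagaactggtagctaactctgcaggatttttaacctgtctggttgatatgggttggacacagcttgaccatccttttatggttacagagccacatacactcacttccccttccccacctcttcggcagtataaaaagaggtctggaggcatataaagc
*Cxcl3* (chr5:90785851-90786100, plus strand): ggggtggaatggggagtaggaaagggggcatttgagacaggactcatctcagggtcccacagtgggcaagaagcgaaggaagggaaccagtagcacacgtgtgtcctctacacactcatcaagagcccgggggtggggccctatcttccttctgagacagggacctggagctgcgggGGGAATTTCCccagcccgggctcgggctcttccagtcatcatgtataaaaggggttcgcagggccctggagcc
*Cxcl1* (chr5:90890995-90891244, plus strand): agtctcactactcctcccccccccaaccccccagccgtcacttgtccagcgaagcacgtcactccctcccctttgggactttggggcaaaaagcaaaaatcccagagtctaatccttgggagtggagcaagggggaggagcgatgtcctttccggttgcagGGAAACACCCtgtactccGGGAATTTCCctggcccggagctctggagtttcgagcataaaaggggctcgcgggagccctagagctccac
*Cxcl2* (chr5:90903649-90903898, plus strand): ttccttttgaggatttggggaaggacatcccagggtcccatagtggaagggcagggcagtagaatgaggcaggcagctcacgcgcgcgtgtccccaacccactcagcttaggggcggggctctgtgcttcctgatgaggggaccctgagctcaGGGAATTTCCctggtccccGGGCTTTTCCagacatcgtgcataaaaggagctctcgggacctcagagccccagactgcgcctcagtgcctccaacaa
*Cxcl1* held 2 matches, with first bases at −89 and −71 from the start site, *Cxcl2* held 2 (−97 and −78) and *Cxcl3* held 1 (−73). No match to these letters lies in the window of *Ppbp*. Of the 45 genes, 33 had 1 or more start sites in the RefSeq table, 38 in all, and 8 of these 38 windows held a match, against 1.41% of 32851 windows of the same length over all genes. The other 5 genes with a match were *Ccl9*, *Ccl20*, *Csf1*, *Il1rn* and *Il6*. No window was available for *Ccl2*, *Ccl4*, *Ccl5*, *Ccl7*, *Ccl11*, *Ccl24*, *Cxcl5*, *Cxcl11*, *Cxcl16*, *Cxcl17*, *Csf3* and *Tslp*, so these were not searched. For the AP-1 motif TGANTCA the counts were 8 of 38 against 6.75%, for the interferon motif (GAAA, any 2 bases, GAAA) 2 of 38 (*Cxcl10* and *Cxcl14*) against 2.98%, and for the C/EBP motif (TTGC, any 2 bases, AA) 5 of 38 against 9.56%. Both strands were searched. A match is a run of letters and does not show that a factor binds there.

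*Cxcl12*, the stromal chemokine that retains stem cells and lymphocytes, had the largest positive difference of the 45 genes. It read 8.10, 6.66 and 8.25 on the wild-type and 8.10, 11.04 and 11.56 on the knockout arrays. Knockout replicates 2 and 3 were above every wild-type array, and knockout replicate 1 lay within the wild-type range. The difference was 2.56 ± 0.99 (SE, adjusted p = 0.743), a 5.91-fold higher mean, and it was 3.85 ± 0.53 without replicate 1 of both genotypes (adjusted p = 0.0148). A second probe set of *Cxcl12* differed by 2.50 and another, dim one by 0.24. *Cxcl14*, a chemokine of skin stroma and epithelium, read 9.34, 4.19 and 4.42 on the wild-type and 10.45, 7.09 and 5.88 on the knockout arrays. Replicate 1 was the highest array of each genotype, and each knockout array was above its wild-type partner, by 1.10, 2.90 and 1.45. The difference was 1.82 ± 1.79 (SE, adjusted p = 0.945; SE 0.39 with the replicate block), and the other probe set differed by 0.83. Leaving out 1 array moved it from 0.50 (without knockout replicate 1) to 3.50 (without wild-type replicate 1).

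The membrane-bound chemokines varied less. *Cx3cl1*, or fractalkine, read 7.79, 8.14 and 7.43 on the wild-type and 7.75, 8.51 and 9.17 on the knockout arrays, a difference of 0.69 ± 0.39 (SE, adjusted p = 0.821). Knockout replicate 3 was the highest array, and the difference within replicate 1 was −0.04. Its 3 other probe sets differed by 0.12 to 0.18. *Cxcl16*, which also serves as a scavenger receptor, read 7.30, 6.79 and 6.64 on the wild-type and 7.48, 6.96 and 7.19 on the knockout arrays. Every knockout array was slightly above its partner, by 0.17 to 0.55, and the ranges overlapped (0.30 ± 0.24, SE, adjusted p = 0.907). *Cxcl13* and *Cxcl17* were dim, at 4.94 to 5.45 and 5.34 to 5.73.

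Of the CXC chemokines that interferon induces, *Cxcl10*, named after its values were seen, read 6.23, 4.57 and 5.18 on the wild-type and 5.81, 5.85 and 6.05 on the knockout arrays. The knockout arrays were alike and lay inside the wild-type range. The difference was 0.58 ± 0.42 (SE, adjusted p = 0.880), and 1.08 without replicate 1 of both genotypes (adjusted p = 0.0465). *Cxcl9* stayed between 4.40 and 4.97 and *Cxcl11* between 4.54 and 5.09.

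**Figure D2:**
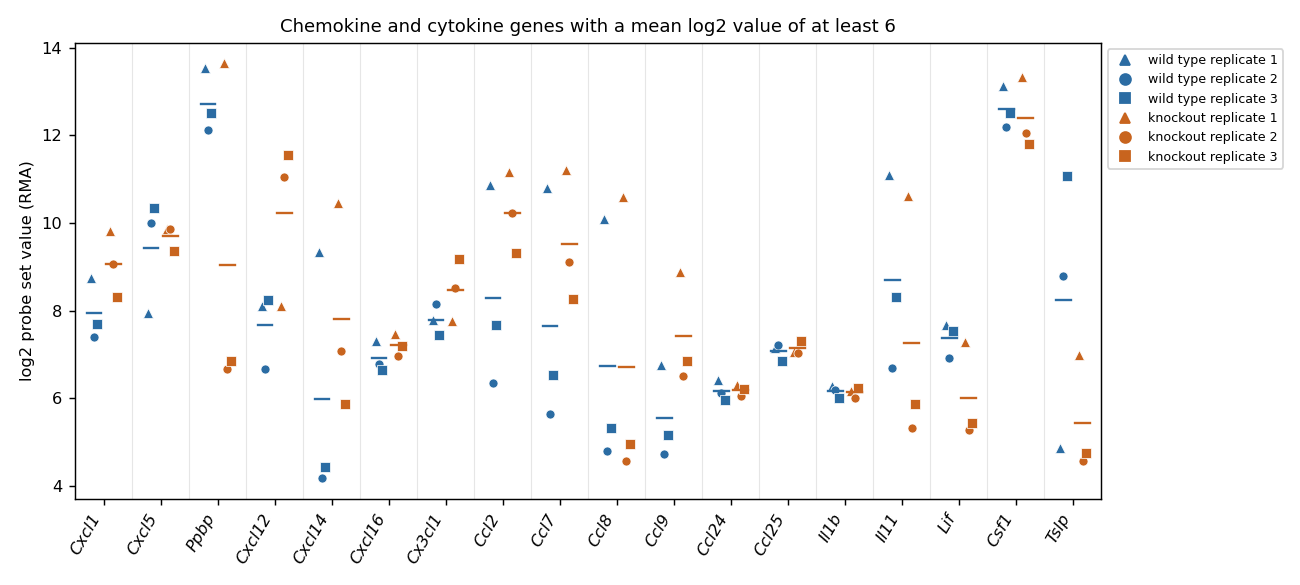
Log2 probe set values on each array for the 18 genes with a mean of at least 6, with wild type in blue, knockout in orange, replicate numbers as symbols and bars at the genotype means (n = 3). Replicate 1 (triangles) is the high array of both genotypes for *Ccl2*, *Ccl7*, *Ccl8*, *Cxcl14* and *Il11*, and *Ppbp* is low only on knockout replicates 2 and 3 (6.67 and 6.85).

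The monocyte chemokines *Ccl2* and *Ccl7* were higher in knockout where replicates 2 and 3 were compared, and both were high on replicate 1 of either genotype. *Ccl2*, the main attractant of monocytes, read 10.86, 6.36 and 7.68 on the wild-type and 11.16, 10.22 and 9.32 on the knockout arrays. Each knockout array was above its partner, by 0.30, 3.87 and 1.64, and the ranges overlapped because of wild-type replicate 1. The difference was 1.93 ± 1.19 (SE, adjusted p = 0.831), it was 3.21 without wild-type replicate 1, and it was 2.75 ± 0.51 without replicate 1 of both genotypes (adjusted p = 0.0291). *Ccl7*, a relative of *Ccl2* that uses overlapping receptors, read 10.80, 5.64 and 6.54 on the wild-type and 11.22, 9.11 and 8.27 on the knockout arrays. It had the same order of arrays within each pair, with differences of 0.42, 3.47 and 1.73, and 1.87 ± 1.51 over all arrays (SE, adjusted p = 0.907). It was 3.44 without wild-type replicate 1 and 0.86 without wild-type replicate 2.

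*Ccl8*, another attractant of monocytes, did not share the difference of *Ccl2* and *Ccl7* on replicates 2 and 3. It read 10.10, 4.80 and 5.33 on the wild-type and 10.60, 4.57 and 4.96 on the knockout arrays. The replicate 1 arrays were high and the 4 others low, and the genotypes differed by 0.50, −0.23 and −0.37 within replicate numbers (−0.03 ± 2.13 over all arrays, SE). *Ccl11*, or eotaxin, ranged from 3.95 to 5.16 and was highest on knockout replicate 1, *Ccl12* from 3.33 to 3.71 and *Ccl1* from 4.85 to 5.33.

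Of the macrophage inflammatory CC chemokines, *Ccl9* and *Ccl5* were higher on each knockout array than on its partner, and *Ccl3* and *Ccl4* were lower on each, by at most 0.16. *Ccl9*, an attractant of myeloid cells, read 6.76, 4.73 and 5.17 on the wild-type and 8.89, 6.50 and 6.84 on the knockout arrays. Replicate 1 was the highest array of each genotype, and the knockout was above wild type by 2.13, 1.77 and 1.68. Without the block the difference was 1.86 ± 0.81 (SE, adjusted p = 0.760). With the replicate block the SE was 0.17, the unadjusted p was 0.000189 and the adjusted p was 0.424. Its second probe set differed by 0.98. *Ccl5*, or RANTES, which attracts T cells and monocytes and was named after its values were seen, read 5.80, 5.43 and 5.20 on the wild-type and 6.81, 6.01 and 5.92 on the knockout arrays. The genotypes did not overlap, and the difference was 0.77 ± 0.30 (SE, adjusted p = 0.743). *Ccl3* (3.52 to 3.98), *Ccl4* (4.96 to 5.16) and *Ccl6* (4.64 to 5.20) were dim on all arrays.

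Leukocyte markers summed to more on knockout replicate 1, the highest array for both *Ccl9* and *Ccl5*, and their part in these values was not tested. Summed on the linear scale, the 23 measured leukocyte markers reached 3483 there, against 1077 to 1358 in wild type and 783 and 869 on the other knockout arrays. *Lyz2*, the lysozyme of myeloid cells, measured 10.57 there and 5.30 to 7.98 on the others, *Cd68* 7.85 against 4.99 to 6.47 and *Fcer1g* 7.80 against 5.83 to 6.36. *Tyrobp*, an adaptor of myeloid receptors named, like these and *Ptprc*, after its values were seen, measured 9.14 on this array and 4.88 to 5.45 on the others. The pan-leukocyte gene *Ptprc* measured 4.23 on this array and 3.84 to 4.44 on the others, and the T cell gene *Cd3g* 3.24 against 3.25 to 3.63. Over all arrays 17 of the 23 markers were above 0 in the genotype difference and 6 below. *Cd14*, the brightest of the list, had the smallest p (−1.97 ± 0.61, SE, adjusted p = 0.743). Its knockout values, replicate 1 included, lay below every wild-type value, where 4.38% of all genes did so. It was called lower without replicate 1 of both genotypes (6.41% of all genes), without knockout replicate 1 (0.313%) and with array weights (4.85%). Without replicate 1 of both genotypes *Ccl9* differed by 1.73 ± 0.22 (adjusted p = 0.0123) and *Ccl5* by 0.65 ± 0.16 (adjusted p = 0.0564).

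The other CC chemokines were flat. *Ccl24*, an eosinophil attractant, read 6.42, 6.12 and 5.97 on the wild-type and 6.30, 6.05 and 6.22 on the knockout arrays, and *Ccl25*, a chemokine of thymus and gut, 7.16, 7.21 and 6.86 against 7.07, 7.04 and 7.32. The ranges of the genotypes overlapped in both genes, and the differences were 0.02 ± 0.17 and 0.07 ± 0.16 (SE). The differences of *Ccl17*, *Ccl20*, *Ccl22* and *Ccl28* lay between 0.02 and 0.18. *Ccl19* and *Ccl26* were not analysed here.

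The genes of the interleukin 1 family were dim or flat. *Il1b* read 6.29, 6.19 and 6.01 on the wild-type and 6.17, 6.0 and 6.24 on the knockout arrays, so that its 6 values spanned 0.29. *Il1a* ranged from 3.21 to 3.56, the receptor antagonist gene *Il1rn* from 4.39 to 5.0 and *Il33*, an alarm signal released by damaged cells, from 3.86 to 4.06. *Tnf* likewise spanned 5.74 to 6.17, with a difference of 0.09 ± 0.17 (SE).

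In the interleukin 6 family, whose members signal through the shared receptor chain gp130, *Il11* and *Lif* were lower on every knockout array than on its partner. *Il11*, a cytokine made by activated fibroblasts, read 11.10, 6.69 and 8.30 on the wild-type and 10.61, 5.33 and 5.87 on the knockout arrays. Replicate 1 was high in both genotypes, and the differences within replicate numbers were −0.49, −1.36 and −2.43. The difference over all arrays was −1.43 ± 1.75 (SE, adjusted p = 0.970), or −1.89 ± 0.54 without replicate 1 of both genotypes (adjusted p = 0.0854). Leaving out knockout replicate 1 gave −3.10, and leaving out wild-type replicate 1 gave −0.23. *Lif*, leukaemia inhibitory factor, read 7.68, 6.91 and 7.53 on the wild-type and 7.28, 5.27 and 5.43 on the knockout arrays. Knockout replicates 2 and 3 lay below all wild-type arrays, while knockout replicate 1 lay within their range. The difference was −1.38 ± 0.58 (SE, adjusted p = 0.747), a 2.6-fold lower mean, and it was −1.87 ± 0.24 without replicate 1 of both genotypes (adjusted p = 0.0123). The second probe set of *Lif* was dim and differed by −0.16. *Il6*, named after its values were seen, was dim on every array and highest on replicate 1 of each genotype, with 5.71, 3.48 and 3.64 on the wild-type and 4.84, 4.01 and 3.41 on the knockout arrays.

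*Tslp*, a cytokine of skin that acts on dendritic cells and lymphocytes, had the widest range of the cytokines in wild type. It read 4.87, 8.78 and 11.08 on the wild-type and 6.99, 4.57 and 4.74 on the knockout arrays. Wild-type replicates 2 and 3 were high, while wild-type replicate 1 was near knockout replicates 2 and 3 and below knockout replicate 1. Replicate 1 thus went the other way (2.12) from replicates 2 and 3 (−4.21 and −6.34). The difference was −2.81 ± 1.63 (SE, adjusted p = 0.821), and −5.28 ± 0.73 without replicate 1 of both genotypes (adjusted p = 0.0146). Leaving out 1 array moved it from −4.50 to −1.39.

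Among the colony-stimulating factors *Csf1*, which keeps macrophages alive and is made by resting fibroblasts, read 13.12, 12.18 and 12.52 on the wild-type and 13.33, 12.06 and 11.80 on the knockout arrays. Replicate 1 was again the highest array of each genotype, and the ranges overlapped (−0.21 ± 0.47, SE, adjusted p = 0.994). Of its 3 other probe sets 1 differed by 0.18 and the others by −0.09 and −0.36. *Csf2* stayed between 4.24 and 5.04, and *Csf3*, the neutrophil growth factor, read 5.21, 4.93 and 4.81 on the wild-type and 4.68, 4.27 and 4.79 on the knockout arrays. The genotypes of *Csf3* lay just apart at these dim levels (−0.41 ± 0.20, SE, adjusted p = 0.778).
The windows before the start sites of *Ccl9* and *Csf1*, bright genes that were highest on replicate 1 of each genotype, each held 1 match to the reverse complement of the NF-kB form, in capitals. *Ccl8*, *Cxcl14*, *Il11*, *Lif* and *Ppbp* were also bright and highest on replicate 1 of each genotype, and their windows held no match. *Cxcl1*, whose window is shown above with 2 matches, had this order of arrays too. So did the bright genes *Ccl2*, *Ccl7*, *Ccl24* and *Cxcl16*, for which no window was available.
*Ccl9* (chr11:83578637-83578886, minus strand): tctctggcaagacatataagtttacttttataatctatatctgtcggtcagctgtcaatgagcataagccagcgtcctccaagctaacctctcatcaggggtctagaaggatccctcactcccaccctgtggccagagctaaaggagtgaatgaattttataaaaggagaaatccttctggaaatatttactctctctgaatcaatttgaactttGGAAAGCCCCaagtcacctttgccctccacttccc
*Csf1* (chr3:107760470-107760719, minus strand): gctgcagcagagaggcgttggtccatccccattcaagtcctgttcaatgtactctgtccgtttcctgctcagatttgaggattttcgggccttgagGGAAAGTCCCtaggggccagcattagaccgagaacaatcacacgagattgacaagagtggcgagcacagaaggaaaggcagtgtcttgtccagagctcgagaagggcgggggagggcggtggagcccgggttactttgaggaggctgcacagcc

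A group of 4 chemokines and 1 cytokine was high on replicate 1 of both genotypes. In both genotypes *Ccl7*, *Ccl8*, *Cxcl3*, *Cxcl14* and *Il11* were over 2 higher on replicate 1 than the mean of replicates 2 and 3, which makes 5 of the 45 genes (11.1%) against 0.83% of all genes. The excess was 5.03 and 5.83 for *Ccl8* in wild type and knockout, 3.91 and 3.77 for *Cxcl3*, 5.04 and 3.96 for *Cxcl14*, 3.60 and 5.01 for *Il11* and 4.71 and 2.53 for *Ccl7*. *Ccl2* was 3.84 higher in wild type and 1.38 higher in knockout. No member was over 2 lower on replicate 1 in both genotypes, where 0.824% of all genes were. *Cxcl12* (0.64 and −3.20), *Tslp* (−5.06 and 2.33), *Cxcl5* (−2.23 and 0.26) and *Ppbp* (1.23 and 6.88) did not follow this pattern. These are also the arrays on which proliferation genes were low, such as *Aurkb*, a mitotic kinase, at 6.26 and 6.72 against 9.12 to 9.78 on the 4 others. The replication clamp gene *Pcna* was at 12.15 and 12.24 there and at 13.11 to 13.70 on the others, while *Rrm2*, for nucleotide supply, covered 11.58 to 12.94 in wild type and 11.59 to 11.94 in knockout. With 1 array per genotype, replicate 1 has no replicate of its own, so no test was made, and the part of proliferation, culture or RNA quality in these values was not tested.

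**Figure D3:**
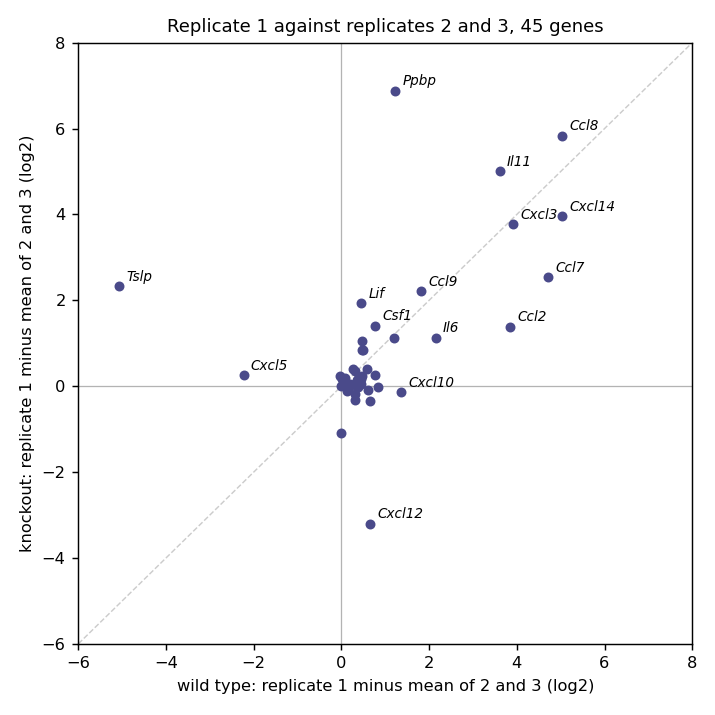
Replicate 1 minus the mean of replicates 2 and 3 (log2) in wild type (horizontal) and in knockout (vertical), 1 point per gene for the 45 genes, with the line of equal values dashed. *Ccl8*, *Cxcl14*, *Cxcl3*, *Il11* and *Ccl7* lie over 2 on both axes, *Ppbp* is high only in knockout (6.88 against 1.23) and *Cxcl12* is low only in knockout (−3.20 against 0.64).

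*Ccl2* and *Ccl7*, which lie side by side, had the same order of arrays within each pair, but other neighbours differed in pattern. By the gene order of GRCm38.p6, *Ccl2*, *Ccl7*, *Ccl11*, *Ccl12*, *Ccl8* and *Ccl1* follow each other on chromosome 11. In that row the 6 values of a gene spanned 4.80 for *Ccl2*, 5.58 for *Ccl7* and 6.03 for *Ccl8*, and 1.21 for *Ccl11* and 0.38 for *Ccl12*, which lie between them. On chromosome 5 the order is *Cxcl5*, *Ppbp*, *Pf4*, *Cxcl3*, *Cxcl15*, *Cxcl1* and *Cxcl2*. There *Cxcl5* differed between genotypes by −0.14 and −0.98 in replicates 2 and 3, its neighbour *Ppbp* by −5.45 and −5.67, and *Pf4* by −0.22 and 0.31. *Ccl11*, *Ccl12* and *Pf4* were dim on all arrays, where RMA compresses differences, so their small spans need not mean a different pattern.

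**Figure D4:**
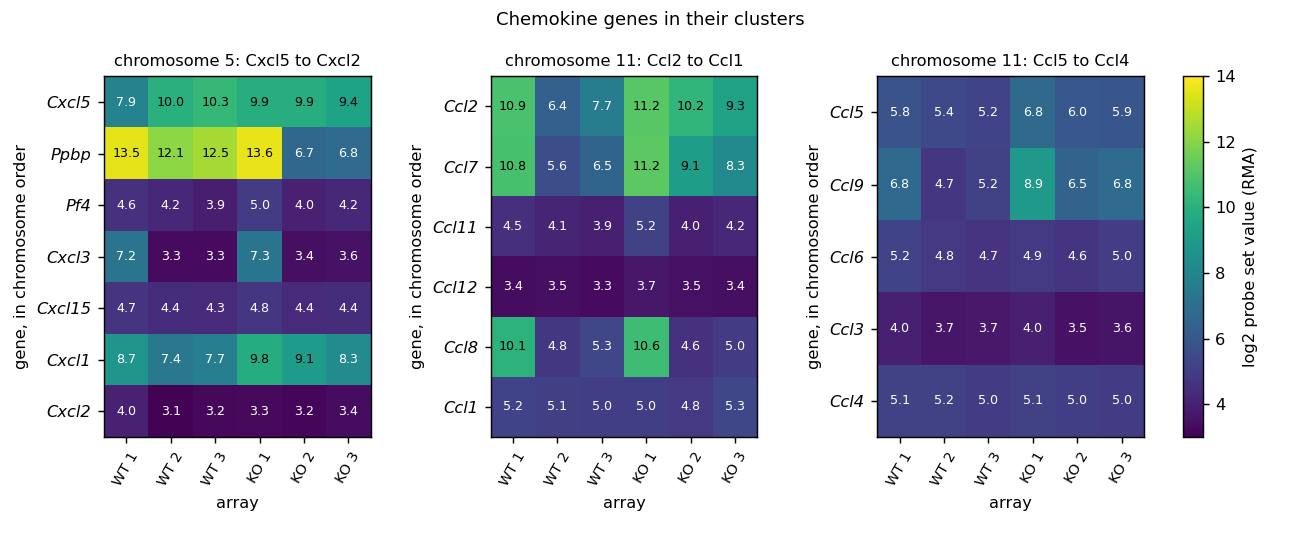
Log2 probe set values on the 6 arrays for the chemokine genes of 3 clusters, with genes in chromosome order from top to bottom and the value written in each cell. In the row from *Ccl2* to *Ccl1*, *Ccl2*, *Ccl7* and *Ccl8* vary over the arrays by more than 4 and *Ccl11* and *Ccl12*, which are dim, do not. In the row from *Cxcl5* to *Cxcl2* the low knockout values of *Ppbp* (6.67 and 6.85) have no counterpart in *Cxcl5* (9.86 and 9.36).

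The receptors of these ligands were read from a list of 35 measured genes. None passed over all 6 arrays by limma (0 of 35), and 4 had an unadjusted p under 0.05 (11.4%, against 6.68% of all genes). Of these 3 were higher (8.57%, against 4.01%) and 1 lower (2.86%, against 2.67%). *Il1r1*, the signalling receptor for interleukin 1, read 8.89, 8.87 and 9.38 on the wild-type and 10.22, 11.36 and 11.23 on the knockout arrays. All knockout arrays were above all wild-type arrays, replicate 1 included. The difference was 1.89 ± 0.35 (SE, unadjusted p = 0.00171, adjusted p = 0.743), and *Il1r1* was the receptor that passed without knockout replicate 1 (adjusted p = 0.0447). *Ackr3*, a scavenger receptor that binds *Cxcl12*, read 8.15, 8.36 and 8.81 on the wild-type and 8.94, 10.51 and 10.85 on the knockout arrays. The genotypes did not overlap, though knockout replicate 1 was only just above the wild type (1.66 ± 0.52, SE, adjusted p = 0.743). Of the 35 receptors, 3 did not overlap between genotypes (8.57%), against 9.93% of all genes. *Cxcr4*, the signalling receptor for *Cxcl12*, was dim at 3.39 to 4.12.

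Receptor chains of the gp130 cytokines and of *Tslp* also varied. *Lifr*, the receptor of *Lif*, read 5.92, 5.42 and 7.23 on the wild-type and 6.55, 9.24 and 9.14 on the knockout arrays. It was high on knockout replicates 2 and 3, the arrays on which *Lif* was low (*Lifr* 2.12 ± 0.86, SE, adjusted p = 0.743). *Il6st*, which encodes gp130, was at 10.60 to 10.75 in wild type and 10.65 to 11.66 in knockout, and *Osmr* at 9.32 to 9.71 and 9.11 to 10.60. *Crlf2*, a chain of the *Tslp* receptor that was named after its values were seen, read 10.86, 9.54 and 10.01 on the wild-type and 10.71, 7.77 and 7.91 on the knockout arrays. Like *Tslp* itself it was low on knockout replicates 2 and 3 (*Crlf2* −1.34 ± 0.86 over all arrays, SE, adjusted p = 0.837). On wild-type replicate 1 they went opposite ways, with *Crlf2* at its highest value (10.86) and *Tslp* at its lowest in wild type (4.87). *Cxcr6*, the receptor of *Cxcl16*, read 6.36, 10.10 and 7.23 on the wild-type and 5.80, 5.48 and 5.32 on the knockout arrays. All knockout arrays lay below the wild type (−2.36 ± 0.95, SE, adjusted p = 0.743), and the difference was −1.26 without wild-type replicate 2. *Ccr4*, a T cell receptor for chemokines, was dim (4.14 to 4.92, −0.37 ± 0.19, SE). *Cxcr2*, the receptor for neutrophil chemokines, was dim at 3.86 to 4.04, and *Tnfrsf1a*, the main receptor for tumour necrosis factor, was at 10.32 to 11.25 on all arrays.

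In the NF-kB list 0 of 29 measured genes passed over all 6 arrays by limma, and 3 had an unadjusted p under 0.05 (10.3%, against 6.68% of all genes). *Vcam1* and *Bcl3* were higher (4.01% of all genes) and *Nfkbib* lower (2.67%). The median difference of the list was −0.18. *Vcam1*, an adhesion molecule for leukocytes, read 9.19, 9.33 and 9.44 on the wild-type and 9.71, 11.77 and 11.99 on the knockout arrays. The genotypes did not overlap, and all 3 probe sets were higher in knockout, by 1.83 ± 0.61 (SE, adjusted p = 0.743) in the chosen one. In the list 3 of the 29 genes did not overlap (10.3%), against 9.93% of all genes. Knockout replicate 1 was only just above the wild type, and without it *Vcam1* passed (adjusted p = 0.0403). *Bcl3*, a nuclear partner of NF-kB, read 7.03, 4.72 and 5.58 on the wild-type and 8.03, 7.07 and 7.01 on the knockout arrays (1.59 ± 0.63, SE). Each knockout array was above its partner, with wild-type replicate 1 high.

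Over all 6 arrays no inhibitor of the pathway passed. *Nfkbib* was at 8.85 to 9.68 in wild type and 8.27 to 8.81 in knockout (−0.67 ± 0.27, SE), and *Nfkbia*, the inhibitor that NF-kB induces, at 11.47 to 11.90 and 11.09 to 11.69 (−0.38 ± 0.22). *Tnfaip3*, a feedback inhibitor, was at 7.01 to 8.18 and 5.94 to 7.67 (−1.06 ± 0.53), and *Irak1*, a kinase below the interleukin 1 receptor, at 10.02 to 10.28 and 8.75 to 10.28 (−0.86 ± 0.42). The inhibitor *Nfkbie*, named after its values were seen, had a difference above 0 (0.37 ± 0.38). Array weights called 6 of the 29 genes (20.7%), against 11.5% of all genes. Of these 3 were higher (6.7% of all genes) and 3 lower (4.85%). *Nfkbia* and *Irak1* were among the lower ones (adjusted p = 0.0354 and 0.0376), and *Bcl3* and *Vcam1* among the higher ones. The subunit *Rela* covered 10.71 to 11.10 in wild type and 10.56 to 11.07 in knockout, and the adhesion gene *Icam1* was high only on replicate 1, at 5.81 and 6.70 against 4.10 to 4.38. Without replicate 1 of both genotypes 9 of the 29 genes passed (31%, against 14% of all genes). Of these 2 were higher (6.9%, against 7.56%) and 7 lower (24.1%, against 6.41%), and *Nfkbia* and *Irak1* were among the lower ones. The same fit passed 6 of the 35 receptors (17.1%).

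**Figure D5:**
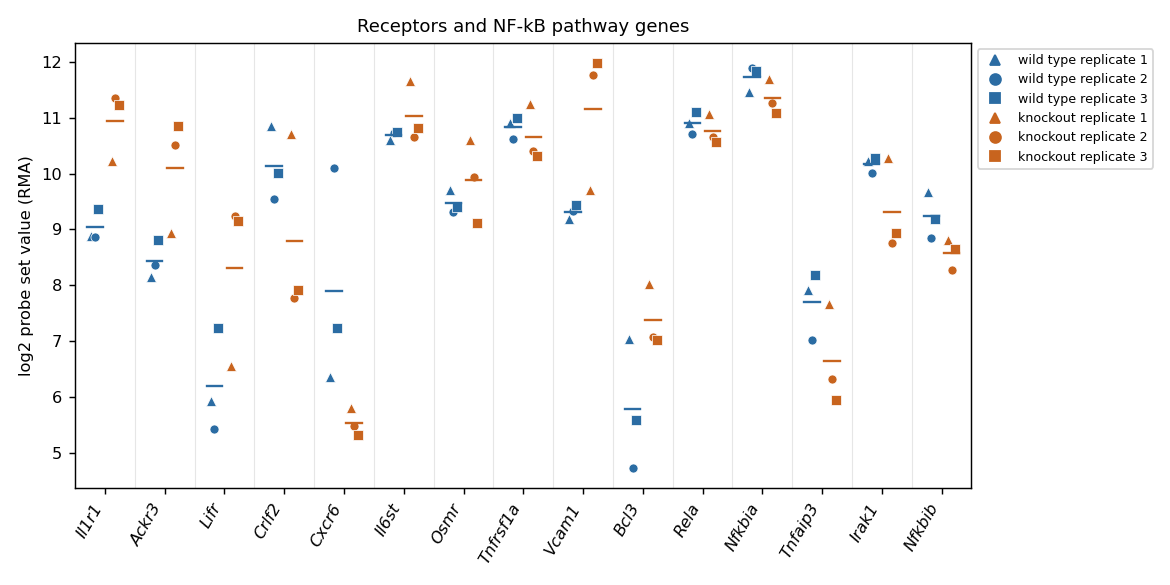
Log2 probe set values on each array for receptors and NF-kB pathway genes, with wild type in blue, knockout in orange, replicate numbers as symbols and bars at the genotype means (n = 3). *Il1r1*, *Ackr3* and *Vcam1* lie wholly above the wild type in knockout and *Cxcr6* and *Nfkbib* wholly below, while *Rela* and *Tnfrsf1a* overlap. Over all genes 9.93% did not overlap.

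Markers of the other cell types that a tail tip could hold, and of the fibroblasts themselves, were set beside these values. The 14 fibroblast markers were above 0 for 12 genes, with a median difference of 0.45. The 2 below 0 were *Vim* and *Fn1*, the latter named after its values were seen. These 2 were lower on each knockout array than on its partner (14.3%, against 13.4% of all genes). The knockout values of *Vim* lay wholly below the wild-type values, where 4.38% of all genes did so. *Dcn*, a matrix proteoglycan, ranged from 6.87 to 10.94 in wild type and from 11.54 to 12.98 in knockout, and *Fap* 6.56, 4.54 and 6.19 against 5.43, 9.26 and 9.66. Both were highest on knockout replicates 2 and 3, where *Cxcl12* was highest too. The 9 keratinocyte markers had a median of −0.01, with *Krt10* at 7.57 to 8.09, *Cdh1* at 3.09 to 3.70 and *Dsp* at 6.18 to 6.74 in wild type and 3.58 to 5.49 in knockout. The 8 endothelial markers had a median of −0.10, from *Esam* (5.51 to 6.17) to *Emcn* (3.34 to 3.70). Summed on the linear scale, the fibroblast markers reached 95336 to 111162 in wild type and 116911 to 139423 in knockout, the keratinocyte markers 564 to 680 and 473 to 632, and the endothelial markers 203 to 246 and 180 to 231. The part of a different mixture of cells in the values above was not tested.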

How the data were processed

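Total RNA of 6 samples, 3 wild type and 3 knockout, was hybridised to Affymetrix mouse arrays. The authors deposited log2 values, 1 for each probe set, and the submitters' processing notes name RMA and R 2.11.1. RMA makes the intensity distributions of arrays alike and compresses differences of dim probe sets, so a change in total RNA cannot be seen. Of 45037 non-control probe sets, 34945 named 1 gene in the platform annotation, 932 several and 9160 none, and 99.4% of the first kind matched the gene table of GRCm38.p6.

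A gene was represented by whichever of its own probe sets had the highest mean, which gave 18193 genes. limma 3.58.1 in R 4.3.3 (lmFit, eBayes) fitted genotype over all genes, with Benjamini-Hochberg adjustment at 0.05. An exact permutation test of 3 against 3 arrays cannot go below 0.1, and the number of arrays limits the precision. Arrays sharing a number had correlated deviations from their group means (0.51 for number 1, 0.39 for 2, 0.35 for 3), so the numbers were taken to pair them, although wild-type replicate 3 correlated best with knockout replicate 2 (0.43). On simulated data with 50 changed genes per size among 18193, recovery was 22%, 46%, 74% and 78% for log2 changes of size 1, 2, 3 and 4 in turn, beside 2 false calls. The simulated noise was drawn independently for each gene, whereas on these arrays many genes deviated together. The recovery rates therefore need not hold for these data.

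The genes and lists were chosen with earlier results of these data known. Members with a mean of at least 6 were described array by array, and *Il1b*, *Tnf*, *Csf2*, *Csf3*, *Ccl3*, *Ccl4*, *Cxcl9* and *Cxcl11* at any level. From the receptor and NF-kB lists came *Il1r1*, *Il6st*, *Tnfrsf1a*, *Lifr*, *Osmr*, *Ackr3*, *Cxcr4*, *Cxcr2*, *Rela*, *Nfkbia*, *Tnfaip3*, *Icam1*, *Vcam1* and the 2 genes of smallest p in each direction, and from marker lists the brightest, the dimmest and the gene of smallest p. Other genes are marked where named. *Nfkb1* was not analysed here. Alternatives were the replicate block, a filter on dim genes, quantile normalization, other eBayes priors, array weights, the mean of all probe sets and leaving out arrays.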

Additional observations from a re-analysis of the deposited data

How the results depend on the processing

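With the replicate block, a filter on dim genes, quantile normalization, trended and robust eBayes priors or the mean of all probe sets, the counts at an adjusted p of 0.05 stayed at 0 for all genes, the 45 genes, the receptors and the NF-kB list. The replicate block thus changed no adjusted call. Array weights called 2101 of all genes, 6 of the 45, 5 receptors and 6 NF-kB genes. Leaving out 1 array gave 0 to 87 over all genes and 0 to 1 in each list, with knockout replicate 1 giving the highest counts. Without replicate 1 of both genotypes, a setting added after the data had been seen, 2542 of all genes, 9 of the 45, 6 receptors and 9 NF-kB genes passed. The median difference of the 45 genes moved between −0.04 and 0.15 when 1 array was left out, and turned negative without knockout replicate 1 and without either of wild-type replicates 2 and 3.

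Of 609 alternative values for 48 named genes, 534 kept direction and side of the threshold, 34 came to pass it and 41 changed sign, in 13 genes. Leaving out 1 array moved the difference from −0.082 to 0.14 for *Ccl24*, −0.039 to 0.14 for *Ccl25*, −1.98 to 1.65 for *Ccl8*, −0.68 to 0.093 for *Csf1*, −0.47 to 0.73 for *Cxcl5*, −0.11 to 0.038 for *Il1b*, −0.16 to 0.24 for *Csf2*, −1.12 to 1.44 for *Cxcl3*, −0.59 to 0.53 for *Il6*, −0.14 to 0.23 for *Cxcr4*, −0.060 to 0.031 for *Cxcr2* and −0.57 to 0.75 for *Icam1*. Quantile normalization gave −0.015 for *Ccl24*. Array weights gave 0.045 for *Ccl8*, −0.40 for *Cxcl5*, 0.00048 for *Il1b*, 0.071 for *Il6*, −0.038 for *Cxcr4* and 0.054 for *Cxcr2*. Without replicate 1 of both genotypes the value was −0.56 for *Cxcl5*, 0.015 for *Il1b*, 0.15 for *Il6*, −0.0067 for *Il6st*, −0.11 for *Cxcr4*, 0.063 for *Cxcr2* and −0.068 for *Icam1*. The cause of these moves was not tested. Dim genes lie near background, where these arrays cannot resolve small differences.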
